A study of Arabidopsis thaliana and Cardamine hirsuta and Capsella rubella with 102 samples.

Results

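The genes described here are 10 members of the APETALA2/ERF family of plant transcription factors that are known as rapid stress regulators: *CBF1*, *CBF2*, *CBF3*, *DREB2A*, *DEAR1*, *ERF109*, *DREB26*, *ERF013*, *ERF017*, and *ERF019*. They were picked by gene identity, and all 10 have a row among the 27416 genes of the Col-0 count table and in the tables of the 5 other accessions. For the other Brassicaceae species, only a part of the study's list of 1:1 orthologs was at hand, and it held *DREB26*, *ERF017*, and *ERF019*. The other 7 genes were not analysed in those species, and whether they have 1:1 orthologs there was not examined. Whole seedlings aged 12 days were treated with 1 µM flg22, the bacterial flagellin epitope sensed by the receptor FLS2, or with mock solution, and RNA-seq counts per gene were compared. Seedlings of *A. thaliana* Col-0, *C. rubella* (N22697), *C. hirsuta* (Oxford), and *E. salsugineum* (Shandong) were sampled at 1, 9, and 24 h, and the *A. thaliana* accessions Kon, No-0, Can-0, Gy-0, and Kn-0 at 1 h only. All were natural strains without an introduced gene. Each group had 3 libraries from 3 independent experiments, each a pool of seedlings, so 102 libraries entered. In such bulk samples, fewer cells of a type and less RNA per cell cannot be told apart.

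The species libraries held 19327936 to 36897285 counts on genes and the accession libraries 14039779 to 28168094. Reads aligned to more than 1 place reached 42.8% in the Col-0 mock library of replicate 2 at 24 h, where *ERF019*, *ERF109*, *ERF013*, and *CBF2* were at 0, and at most 6.81% of an accession library. The seedlings were sampled whole, and each of the 3 shoot and 5 root marker genes was detected in every *A. thaliana* accession. Col-0 and the other accessions were sequenced in separate runs with different read lengths, so their values are set side by side and were not tested against each other. A gene was tested when its mean count per library was 10 or more, and it was called when the adjusted *P*-value was below 0.01 and the absolute log2 fold change above 1. Library sizes were scaled by TMM (trimmed mean of M-values), whose factors at 1 h were lower in flg22 than in mock libraries, by a mean log2 difference of -0.07 in Col-0 to -0.45 in No-0. Scaling by total counts therefore moved the median log2 fold change of all genes at 1 h by -0.07 in Col-0, -0.43 in Kon, and -0.45 in No-0, and no tested member gained or lost a call by it.

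APETALA2/ERF proteins bind short GC-rich DNA elements through a shared domain. CBF1, CBF2, and CBF3 are the cold-induced activators of cold acclimation and bind the CRT/DRE element, and their genes lie side by side on chromosome 4. DREB2A binds the same element in drought and heat and is held low by protein turnover, whereas DEAR1 combines a DREB-type domain with an EAR repression motif. ERF109 belongs to group X of the ERF family and links jasmonate and wounding to auxin production in roots. DREB26, ERF013, ERF017, and ERF019 are less studied members of the DREB subfamily, of which ERF019 is known to affect growth and senescence. Rapid stress genes of this kind respond within minutes to touch, cold, wounding, and light, and many are paced by the circadian clock.

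The promoters of 3 members are shown because these genes stand for the patterns described here. *ERF019* rose most, *DEAR1* was called at every time point, and *CBF2* was the CBF gene with the most counts in Col-0. The windows are the 300 bases before the annotated start, on the gene's strand, read from the RefSeq assembly TAIR10.1. Capitals mark matches to 8 motifs searched on both strands: the W boxes TTGACC and TTGACT (WRKY factors), the rapid stress response element CGCGTT, the CAMTA box CCGCGT, the CRT/DRE core CCGAC, the G box CACGTG, the evening element AAAATATCT, and the GCC box GCCGCC. *ERF019* (chr1:8075038-8075337, minus strand), *DEAR1* (chr3:18634246-18634545, plus strand), and *CBF2* (chr4:13016236-13016535, minus strand) read as follows.
ERF019: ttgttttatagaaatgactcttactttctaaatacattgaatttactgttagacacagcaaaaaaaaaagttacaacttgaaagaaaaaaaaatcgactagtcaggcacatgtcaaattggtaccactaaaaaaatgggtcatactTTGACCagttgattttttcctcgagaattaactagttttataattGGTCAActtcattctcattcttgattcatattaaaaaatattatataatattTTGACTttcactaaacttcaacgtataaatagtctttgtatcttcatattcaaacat
DEAR1: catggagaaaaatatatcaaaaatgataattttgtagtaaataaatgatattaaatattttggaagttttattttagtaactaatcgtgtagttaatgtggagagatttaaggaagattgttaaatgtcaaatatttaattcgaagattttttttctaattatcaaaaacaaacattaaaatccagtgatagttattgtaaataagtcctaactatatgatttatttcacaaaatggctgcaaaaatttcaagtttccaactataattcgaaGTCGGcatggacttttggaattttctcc
CBF2: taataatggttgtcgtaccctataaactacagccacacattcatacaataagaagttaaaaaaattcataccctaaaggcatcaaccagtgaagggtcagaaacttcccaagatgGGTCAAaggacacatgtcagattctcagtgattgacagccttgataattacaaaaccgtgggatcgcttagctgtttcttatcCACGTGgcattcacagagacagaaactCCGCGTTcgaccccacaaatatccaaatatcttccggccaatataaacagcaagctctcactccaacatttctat

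The *ERF019* window held W boxes that begin 154, 109, and 57 bases before the start, 2 of them TTGACC and 1 TTGACT. Among 27443 promoters of this length, 14% held TTGACC and 21.9% held TTGACT. The *CBF2* window held a CAMTA box at 75 bases and a rapid stress response element at 74 bases that overlap in 1 run, besides a G box at 102 and a W box at 185. These motifs occurred in 2.01%, 3.08%, 7.09%, and 14% of all promoters. Of the 9 members whose windows were searched, 2 held CGCGTT, *CBF2* and *ERF017*. A W box of either form was found in 4 members (*CBF2*, *ERF013*, *ERF017*, and *ERF019*). *DEAR1* held a CRT/DRE core 28 bases before its start, a motif of 13.9% of promoters, and no W box. None of the 8 motifs was found in 2 members, *CBF1* and *CBF3*. A match is a description of the letters and was not tested as a binding site.

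In Col-0 the members ranged widely in basal level. At 1 h in mock seedlings, mean levels per length were 13.8 CPM per kb for *DREB26*, 4.93 for *DEAR1*, 1.97 for *DREB2A*, and below 0.7 CPM per kb for the other 7. With flg22 at 1 h, *DEAR1* reached 15.0 and *ERF019* 13.6 CPM per kb, with overlapping libraries, and *DREB26* stood at 9.42. Of the 10 members, 6 passed the filter in Col-0, and *CBF1*, *CBF2*, *CBF3*, and *ERF017* did not.

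*ERF019* (AT1G22810; chromosome 1, 8074231 to 8075037, TAIR10.1, a single exon) was close to silent in mock seedlings and rose most among the members at 1 h. Its level was 12.0, 7.42, and 13.5 CPM in the flg22 libraries of replicates 1, 2, and 3, against 0.194, 0, and 0.106 CPM in mock (364, 172, and 381 counts against 5, 0, and 3). Every flg22 library lay far above every mock library. The log2 fold change was 6.86 ± 0.74 (SE, n = 3 per group), with an adjusted *P*-value of 1.11e-06 in edgeR's quasi-likelihood test. At 9 h the flg22 libraries held 20, 14, and 22 counts, against 8, 0, and 3 in mock. The groups still did not overlap, but the log2 fold change of 2.73 ± 0.77 missed the threshold with an adjusted *P*-value of 0.0110. At 24 h the counts were 61, 34, and 35 with flg22, against 50, 0, and 10 in mock, and the groups overlapped through the mock library of replicate 1. Flg22 was still the higher in each pair, and the log2 fold change of 1.65 ± 0.59 missed the threshold with an adjusted *P*-value of 0.0583. The flg22 effect at 24 h differed from that at 1 h by -5.21 ± 0.96 on the log2 scale, and this difference was called (adjusted *P*-value 0.00230). Without the replicate block it was -5.35 with an adjusted *P*-value of 0.0164, and it also missed the threshold without replicate 1 (-4.42, 0.118) or replicate 3 (-5.34, 0.0587).

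The 3′ end of *ERF019* overlaps AT1G22800, a gene on the other strand. AT1G22800 held 330 to 651 counts in every Col-0 library, and its log2 fold change at 1 h was -0.01 ± 0.12. A noncoding RNA gene, AT1G05767, is annotated over the same stretch. *ERF109* overlaps AT4G34412 and AT4G08985 on the other strand, *DREB2A* overlaps AT5G05420, and *CBF3* overlaps AT4G07385. AT4G34412 held 324 to 920 counts per Col-0 library, with a log2 fold change at 1 h of -0.10 ± 0.21. AT5G05420 held 18 to 161 counts, with -1.04 ± 0.42 at 1 h. The libraries were strand-specific, and the methods name HTSeq's default, which counts by strand, beside a first-strand library type, for which that default reads the opposite strand. HTSeq's summary lines, which hold the reads not counted on a gene, made up 13.7% of the Col-0 flg22 library of replicate 1 at 1 h. They made up 37.3% of the mock library of replicate 2, the highest share in Col-0 at 1 h. Reads aligned to more than 1 place were 9.68% and 31.2% of these libraries and account for most of those lines. Most reads at 1 h were thus counted on a gene, and which setting made the counts was not tested.

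*DEAR1* (AT3G50260; chromosome 3, 18634546 to 18635514, a single exon) was the member called at all times. At 1 h it measured 17.4, 14.9, and 11.3 CPM with flg22, against 5.27, 5.69, and 3.36 CPM in mock. At 9 h the values were 29.5, 17.98, and 19.4 CPM with flg22, against 6.27, 8.14, and 8.97 CPM in mock. At 24 h they were 12.5, 7.95, and 8.84 CPM with flg22, against 3.54, 3.79, and 2.75 CPM in mock. At each time the lowest flg22 library was above the highest mock library. The log2 fold changes were 1.61 ± 0.23, 1.48 ± 0.23, and 1.54 ± 0.24, with adjusted *P*-values of 3.60e-05, 1.05e-04, and 1.41e-04, and all were called. The effect at 9 h differed from that at 1 h by -0.13 ± 0.32 and the effect at 24 h by -0.07 ± 0.33, neither of which was called. Without replicate 1, whose flg22 library was the highest at 9 h, the log2 fold change at 9 h was 1.13 with an adjusted *P*-value of 0.0161.

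*DREB2A* (AT5G05410; chromosome 5, 1602205 to 1604112, 3 exons) did not reach the threshold for flg22 at any time in edgeR, and the direction of its values differed between early and late samples. At 1 h the flg22 libraries measured 8.79, 3.49, and 5.75 CPM, against 4.18, 2.76, and 2.83 CPM in mock. At 9 h they measured 32.3, 10.2, and 14.4 CPM, against 11.8, 7.50, and 12.1 CPM in mock. At 24 h they measured 7.92, 6.19, and 6.63 CPM, against 17.5, 7.82, and 17.4 CPM in mock. Within each pair of libraries, flg22 was the higher at 1 and 9 h and the lower at 24 h, and the ranges overlapped at every time. The log2 fold changes were 0.83 ± 0.26 at 1 h (adjusted *P*-value 0.0187), 0.75 ± 0.24 at 9 h (0.0209), and -0.97 ± 0.24 at 24 h (0.00872, with a fold change just under the threshold). The 24 h value was called by limma-voom (-1.03, adjusted *P*-value 0.00420) and without replicate 2 (-1.28, 0.00745), whose mock library had the lowest mock level. The difference between the effects at 24 and 1 h was called at -1.79 ± 0.36 (adjusted *P*-value 0.00406), but not without the block (-1.93, 0.0689), nor without replicate 1 (-1.56, 0.0854) or replicate 3 (-1.45, 0.1001). In mock seedlings alone, *DREB2A* was higher at 9 h than at 1 h by 1.68 ± 0.26 and at 24 h than at 1 h by 2.09 ± 0.26 on the log2 scale (adjusted *P*-values 1.17e-04 and 1.38e-05). It was the 1 member called in each of these 2 mock comparisons, in which 8.07% and 9.22% of all genes were called. Without the block the 9 h difference was 1.68 with an adjusted *P*-value of 0.0105.

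*DREB26* (AT1G21910; chromosome 1, 7696427 to 7697831, a single exon) was the most abundant member in mock seedlings and ran lower with flg22 early on. At 1 h it measured 14.3, 6.99, and 18.4 CPM with flg22, against 15.5, 12.7, and 30.1 CPM in mock. At 9 h it measured 15.9, 7.59, and 16.8 CPM with flg22, against 27.6, 15.6, and 28.5 CPM in mock. Each flg22 library was below the mock library of its own replicate, while the groups overlapped because replicates differed in level. The log2 fold changes were -0.56 ± 0.22 at 1 h (adjusted *P*-value 0.0559) and -0.86 ± 0.22 at 9 h (0.00638, short of the fold threshold). At 24 h the value was 0.11 ± 0.22 (0.786), and -0.28 without replicate 2.

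*ERF109* and *ERF013* were near the lower limit of the test in Col-0. *ERF109* (AT4G34410; chromosome 4, 16451876 to 16453260) had 19, 35, and 6 counts with flg22 at 1 h, against 15, 10, and 8 in mock. Its 9 h counts were 98, 34, and 15 with flg22, against 9, 7, and 30 in mock, and the groups overlapped at each time. The log2 fold changes of 0.92 ± 0.87, 1.48 ± 0.85, and 0.55 ± 0.98 at 1, 9, and 24 h had adjusted *P*-values of 0.422, 0.183, and 0.744. *ERF013* (AT1G77640; chromosome 1, 29178705 to 29179877) had 4, 25, and 39 counts with flg22 at 1 h, against 9, 4, and 50 in mock. At 24 h it had 45, 25, and 66 counts, against 17, 0, and 30, a log2 fold change of 1.87 ± 0.83 (adjusted *P*-value 0.128). With SEs of 0.79 to 0.98 on the log2 scale for these genes, a change of the size seen in *DEAR1* could not be told from the spread between these libraries.

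**Figure D1:**
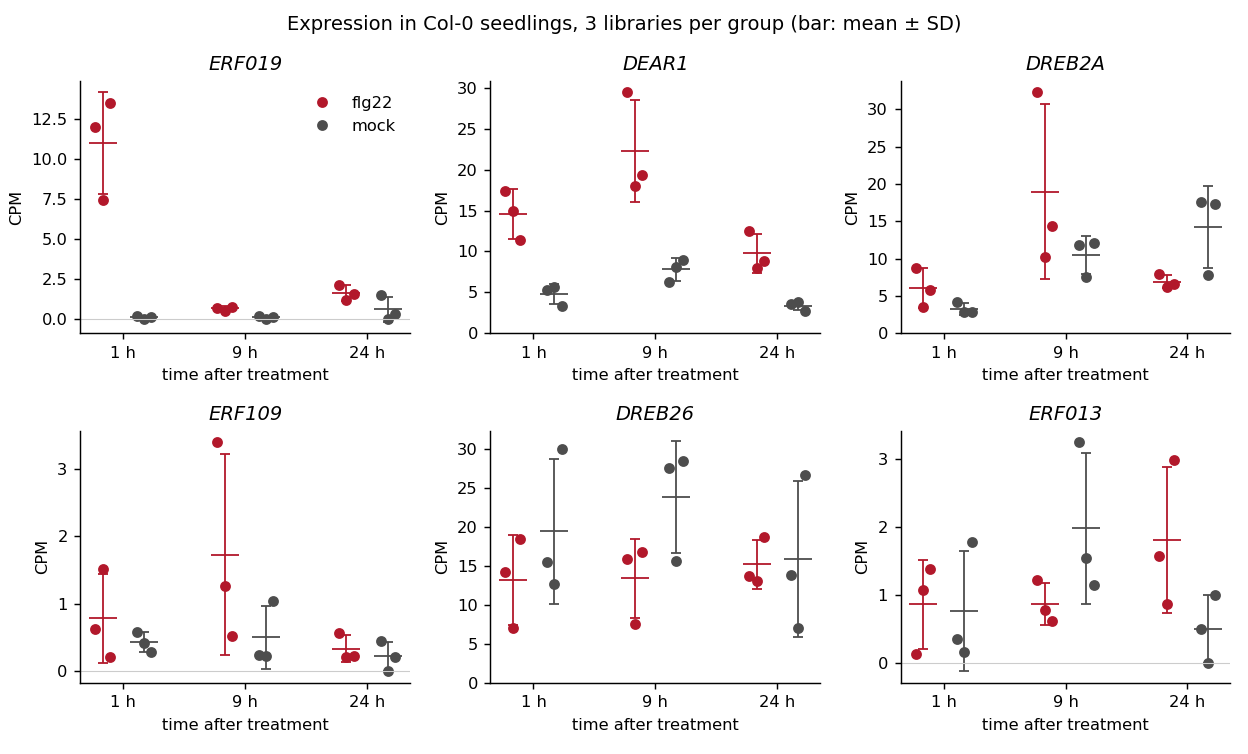
Expression in CPM (vertical axes, linear) of the 6 members tested in Col-0 at 1, 9, and 24 h (horizontal axes), with flg22 in red at the left and mock in grey at the right of each time. Points are the 3 libraries and bars the mean ± SD. *ERF019* stands at 7.42 to 13.5 CPM with flg22 at 1 h and at most 0.194 CPM in mock, *DEAR1* is separated from mock at every time, and the *DREB2A* libraries change order between 9 and 24 h.

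In all, 2 of the 6 tested members were called at 1 h in Col-0, both higher, beside 11.9% of all 20295 genes tested. Of these, *ERF019* passed the filter through its flg22 libraries, with mock sums of 8, 11, and 60 counts at 1, 9, and 24 h. At 9 h and at 24 h *DEAR1* was the 1 member called, beside 11.1% and 7.23% of all genes. The flg22 and mock CPM values did not overlap in 2, 2, and 1 of the 6 tested members at 1, 9, and 24 h, beside 42.5%, 41.3%, and 30.3% of all genes. For the change of the flg22 effect with time, 0 of 6 members were called at 9 against 1 h by edgeR, DESeq2, or limma-voom, with 1 at an unadjusted *P*-value under 0.05 (*ERF019*, -4.13 ± 1.21, adjusted *P*-value 0.0301), beside 5.29% of all genes. At 24 against 1 h, 2 of 6 were called, both lower, beside 3.44% of all genes. Leaving out replicate 1 or replicate 3 from every group, or dropping the block, gave 0.

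*ERF019* and *DEAR1* rose at 1 h in each of the 5 other accessions, and *DREB26* fell. In No-0, *ERF019* measured 80.8, 132, and 247 CPM with flg22, against 0.156, 0.455, and 0.417 CPM in mock. In Kon it measured 65.6, 116, and 183 CPM with flg22, against 0.475, 0.530, and 1.22 CPM in mock. In Can-0 it measured 31.7, 55.2, and 169 CPM with flg22, against 0.904, 0.656, and 0.494 CPM in mock. The flg22 libraries of each accession lay above all of its mock libraries. In Gy-0 the values were 34.4, 69.6, and 86.4 CPM with flg22, against 0.234, 0.470, and 0.795 CPM in mock. In Kn-0 they were 36.8, 61.6, and 83.3 CPM with flg22, against 2.95, 1.97, and 0.456 CPM in mock, and the first 2 of these were the highest mock values of *ERF019* among the 5 accessions. Fold changes on the log2 scale were 8.76 ± 0.25 in No-0, 7.34 ± 0.21 in Kon, 6.97 ± 0.16 in Gy-0, 6.60 ± 0.44 in Can-0, and 5.10 ± 0.64 in Kn-0, with adjusted *P*-values from 2.84e-36 to 0.00196. Although these values span 3.71 in the joint fit, the difference among the 5 accessions was not called (adjusted *P*-value 0.289, and 0.0238 with the replicate block).

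*DEAR1* was called in each of the 5 accessions with similar sizes. It measured 25.5, 39.3, and 47.0 CPM with flg22 in Kon, against 8.44, 6.07, and 12.2 CPM in mock. In No-0 it measured 20.3, 29.8, and 29.8 CPM with flg22, against 6.14, 6.23, and 7.36 CPM in mock. In both accessions the groups were apart, as they were in the other 3. On the log2 scale the changes were 2.07 ± 0.21 in Kon, 2.00 ± 0.19 in No-0, 1.59 ± 0.28 in Kn-0, 1.56 ± 0.12 in Gy-0, and 1.54 ± 0.20 in Can-0. Their spread of 0.55 in the joint fit had an adjusted *P*-value of 1.00. Without the block, *DEAR1* missed the threshold in Can-0 (1.59, adjusted *P*-value 0.0481) and Gy-0 (1.55, 0.0175), and without replicate 3 also in Can-0 (1.44, 0.0134).

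*DREB26* fell in each of the 5 accessions. In Kon it measured 5.14, 4.57, and 4.36 CPM with flg22, against 26.5, 47.2, and 32.9 CPM in mock. In Can-0 it measured 9.597, 3.56, and 6.22 CPM with flg22, against 35.7, 34.4, and 39.5 CPM in mock. In No-0 it measured 10.5, 7.15, and 6.98 CPM with flg22, against 32.4, 44.3, and 25.1 CPM in mock. No flg22 library of these accessions reached the level of any mock library. These gave log2 fold changes of -2.88 ± 0.21 in Kon, -2.57 ± 0.24 in Can-0, -2.03 ± 0.19 in No-0, -1.73 ± 0.15 in Gy-0, and -1.57 ± 0.18 in Kn-0, with adjusted *P*-values from 6.42e-14 to 0.00149. The spread of 1.35 among accessions was not called (adjusted *P*-value 0.298, and 0.0391 with the replicate block). The Col-0 value of -0.56 at 1 h was smaller than these, but it came from the separate run and the difference was not tested.

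*ERF109* was the member whose call varied by accession. In No-0 it had 26, 28, and 17 counts with flg22, against 3, 1, and 6 in mock, and in Kon it had 12, 40, and 17 counts with flg22, against 4, 5, and 5 in mock. Both accessions showed separated groups, with log2 fold changes of 3.32 ± 0.63 in No-0 (adjusted *P*-value 1.20e-05) and 2.53 ± 0.56 in Kon (0.00438, and 0.0138 without the block). In Can-0, Gy-0, and Kn-0 the groups overlapped. The Kn-0 counts were 33, 15, and 10 with flg22, against 52, 11, and 11 in mock. Their log2 fold changes were 0.24 ± 0.45, 0.72 ± 0.45, and 0.15 ± 0.42, with adjusted *P*-values of 0.699, 0.2199, and 0.823. The test of the difference among the 5 accessions gave a spread of 3.30 with an unadjusted *P*-value of 0.00553 and an adjusted one of 0.209. With the replicate block the adjusted *P*-value was 0.0119, still above the threshold, so the accessions were not shown to differ. In mock alone the spread of *ERF109* was 2.55 on the log2 scale with an adjusted *P*-value of 0.0386.

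*DREB2A* and *ERF013* did not pass in any accession. The *DREB2A* log2 fold changes ran from -0.31 ± 0.25 in Gy-0 to 0.80 ± 0.28 in Kon. Its Kon libraries were apart, at 4.12, 4.16, and 3.25 CPM with flg22, against 2.30, 1.97, and 2.30 CPM in mock, yet the adjusted *P*-value was 0.0411. *ERF013* was tested in 4 accessions, where its values lay between -1.05 ± 0.40 in Kn-0 and -0.88 ± 0.34 in Gy-0, with adjusted *P*-values from 0.0331 to 0.211. In each of these accessions and in Kon the flg22 library was lower than its own mock pair in all 3 replicates, at 3 to 26 counts against 11 to 58 in the 4 tested accessions.

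**Figure D2:**
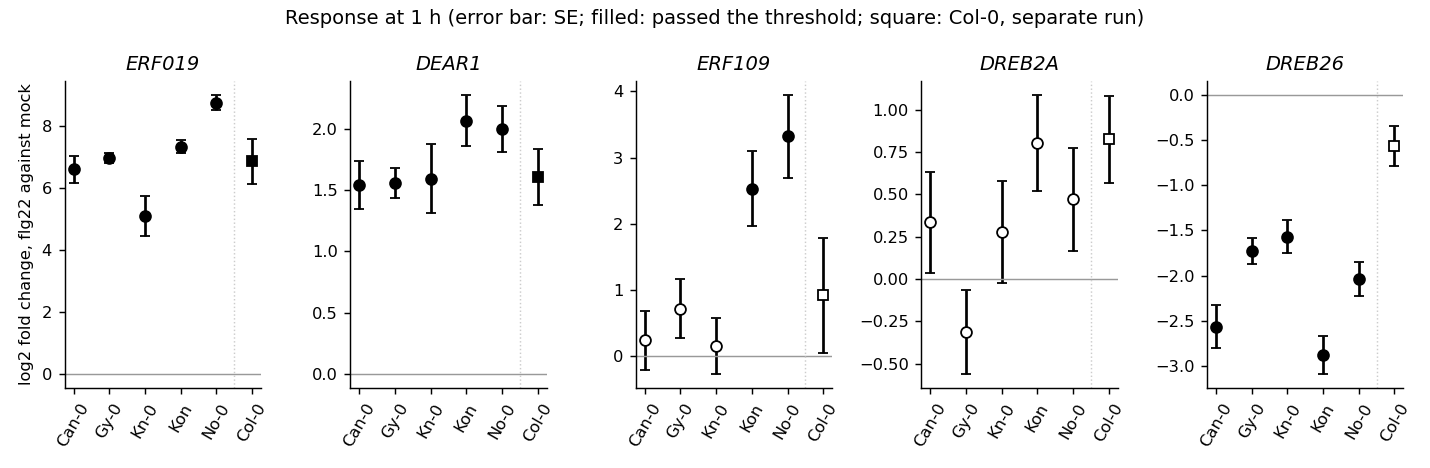
log2 fold change of flg22 against mock at 1 h (vertical axes) for 5 members in 5 accessions and, right of the dotted line, in Col-0 from a separate run. Error bars are the SE from the fit, and filled symbols passed the threshold. *ERF019*, *DEAR1*, and *DREB26* are filled in all 5 accessions, *ERF109* in Kon and No-0 only, and *DREB2A* in none.

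The members called were 4 of 5 tested in Kon (beside 20.4% of all genes), 4 of 7 in No-0 (20.7%), 3 of 6 in Can-0 (16.4%), 3 of 6 in Gy-0 (14.8%), and 3 of 6 in Kn-0 (9.21%). The filter took both treatments together, so these shares depend in part on the outcome. *ERF109* passed it in Kon and No-0 through its flg22 libraries, with mock sums of 14 and 10 counts. *ERF019* did so in No-0, with a mock sum of 23 counts. *ERF013* in Kon, at 12 counts with flg22 and 46 in mock, was left out. Of the tests for a difference in the flg22 effect among the 5 accessions, 0 of 6 were called by edgeR or by DESeq2, with 3 at an unadjusted *P*-value under 0.05 (*ERF109*, *ERF019*, and *DREB26*), beside 0.375% of all genes. For the mock level among accessions, 0 of 6 were called, with 2 at an unadjusted *P*-value under 0.05 (*ERF109* and *DREB26*), beside 12.2% of all genes. DESeq2 called 1, *ERF109*, with an adjusted *P*-value of 0.00998.

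The orthologs of *ERF019* rose at 1 h in all 3 other species, and the 1:1 orthologs of *DREB26* ran lower in each. In *E. salsugineum* the *ERF019* ortholog had 2026, 1806, and 1728 counts with flg22 at 1 h, against 7, 100, and 4 in mock. In *C. rubella* it had 727, 666, and 973 counts with flg22, against 6, 0, and 7 in mock. In *C. hirsuta* it had 330, 266, and 403 counts with flg22, against 1, 2, and 6 in mock. No mock library came near the flg22 libraries of its species. In the same order of species, log2 fold changes were 6.49 ± 0.56, 7.73 ± 0.62, and 6.97 ± 1.34, with adjusted *P*-values of 1.92e-07, 5.82e-08, and 0.00108. Without replicate 2, whose mock library held the 100 counts, the *E. salsugineum* value was 8.56. Without replicate 2 the *C. hirsuta* value was 6.70 with an adjusted *P*-value of 0.0317.

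The later course of *ERF019* differed in values between species. At 9 h the *E. salsugineum* ortholog still had 40, 176, and 130 counts with flg22, against 3, 6, and 3 in mock, a log2 fold change of 5.03 ± 0.77 that was called (adjusted *P*-value 7.25e-04) but not without replicate 3 (4.64, 0.0245). The *C. rubella* ortholog had 40, 27, and 59 counts with flg22, against 7, 5, and 22 in mock (1.93 ± 0.56, 0.0479). The *C. hirsuta* ortholog had 2, 3, and 20 counts with flg22, against 13, 1, and 6 in mock (0.68 ± 1.48, 0.768). The first 2 species showed separated groups and the *C. hirsuta* groups overlapped. At 24 h the *C. rubella* counts were 122, 91, and 46 with flg22, against 26, 9, and 8 in mock, a called change of 2.88 ± 0.53 (adjusted *P*-value 0.00108). This call was lost without replicate 1 (3.39, 0.0112) or replicate 2 (2.47, 0.0252). The 24 h values were 2.68 ± 0.81 in *E. salsugineum* (0.0404) and 0.61 ± 1.07 in *C. hirsuta* (0.763), where replicate 1 stood apart with 155 counts with flg22 and 51 in mock. These later differences between species were not tested.

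The *DREB26* ortholog measured 5.16, 4.91, and 6.77 CPM with flg22 at 1 h in *C. rubella*, against 15.7, 12.6, and 11.3 CPM in mock. In *C. hirsuta* it measured 3.38, 2.31, and 5.34 CPM with flg22, against 5.11, 10.2, and 10.02 CPM in mock. In *E. salsugineum* it measured 15.1, 13.7, and 11.7 CPM with flg22, against 28.0, 53.3, and 17.8 CPM in mock. The groups were apart in *C. rubella* and *E. salsugineum* and overlapped in *C. hirsuta*. In the same order, log2 fold changes were -1.22 ± 0.20 (adjusted *P*-value 1.302e-04), -1.14 ± 0.45 (0.0633), and -1.17 ± 0.26 (0.00250), so 2 of the 3 were called. The *E. salsugineum* mock library of replicate 2 held 1973 *DREB26* and 100 *ERF019* counts, more than both other mock libraries. Without replicate 2 the *DREB26* value in that species was -0.75 (adjusted *P*-value 0.0854), without replicate 1 it was -1.32 (0.0196), and without the block it was -1.29 (0.0294). In *C. rubella* it was -1.09 without replicate 2 (0.0144). At 9 and 24 h no *DREB26* ortholog passed, with log2 fold changes from -0.67 to 0.05.

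**Figure D3:**
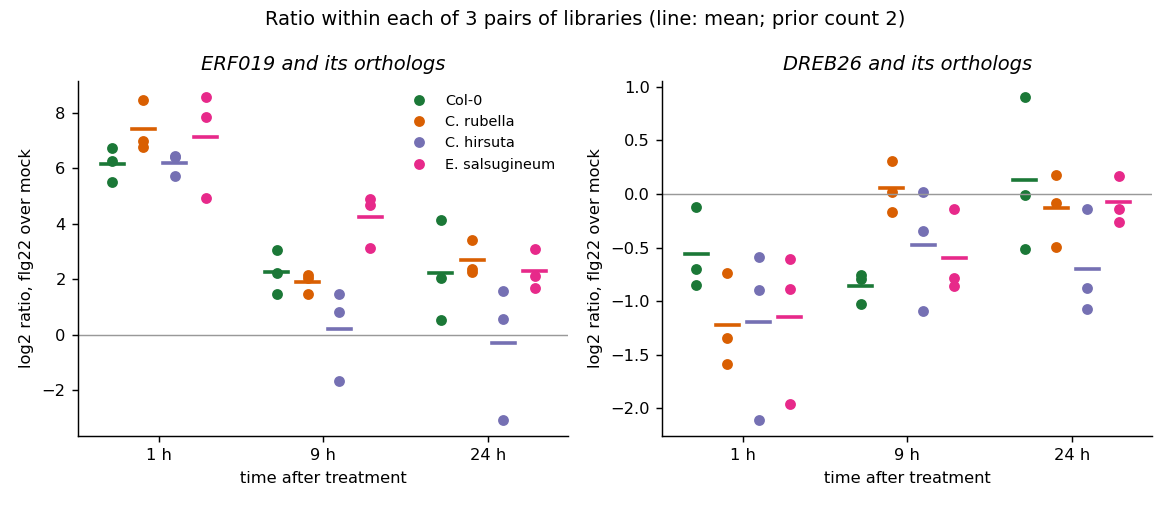
log2 ratio of flg22 over mock within each replicate (vertical axes, prior count of 2) for *ERF019* and *DREB26* at 1, 9, and 24 h in 4 species, with points for the 3 pairs and lines for their mean. All 12 pairs of *ERF019* lie between 4.94 and 8.58 at 1 h, and all 12 pairs of *DREB26* lie below 0 at 1 h.

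At 1 h, *C. rubella* had both tested orthologs called, beside 19.9% of all genes. In *C. hirsuta* 1 of 2 was called, beside 13.9%, and *E. salsugineum* had 2 called, beside 12.4%. At 9 h 0 were called in *C. rubella* (1 at an unadjusted *P*-value under 0.05, 1 called by DESeq2 and 0 by limma-voom, beside 2.27% of all genes), 0 in *C. hirsuta* (0 unadjusted and 0 by both other tools, beside 6.54%), and 1 in *E. salsugineum* (beside 2.63%). At 24 h the counts were 1 in *C. rubella* (beside 7.66%), 0 in *C. hirsuta* (0 unadjusted and 0 by both other tools, beside 1.36%), and 0 in *E. salsugineum* (1 unadjusted, 1 called by DESeq2 and 0 by limma-voom, beside 3.08%). The flg22 effect at 1 h differed among the 4 species in 0 of the 2 tested members, with 0 at an unadjusted *P*-value under 0.05 and 0 called by DESeq2, beside 14.7% of 1553 orthologs. The spread was 1.48 for *ERF019* (adjusted *P*-value 0.672) and 0.74 for *DREB26* (0.655).

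*CBF1*, *CBF2*, *CBF3*, and *ERF017* were read too rarely for the test, and their counts are given as they are. *CBF1* reached at most 12 counts in any *A. thaliana* library and *CBF3* at most 10, and both were at 0 in all 6 Kon libraries. The coding sequences of *CBF1*, *CBF2*, and *CBF3* were 87.3% to 87.5% identical, but the longest stretch shared by any 2 transcripts was 68 bases. No window of 100 or 150 bases, the lengths of the reads, was shared exactly.

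*CBF2* (AT4G25470; chromosome 4, 13015250 to 13016235, a single exon) had the most counts of the 3 tandem genes in every accession but Can-0, and its order between groups varied. In Can-0, *CBF3* had 12 counts with flg22 and 8 in mock, against 1 and 5 for *CBF2*. In Col-0 at 1 h it had 5, 3, and 1 counts with flg22, against 15, 10, and 13 in mock. At 24 h it had 16, 14, and 6 counts with flg22, against 8, 0, and 3 in mock. The CPM values of the groups did not overlap at either time, in opposite directions. In a fit without the filter, the log2 fold changes were -2.23 ± 0.85 at 1 h (adjusted *P*-value 0.0539) and 2.06 ± 0.84 at 24 h (0.111), and the difference between them was 4.30 ± 1.20 (0.0330), so none passed. In Gy-0 at 1 h *CBF2* had 4, 3, and 1 counts with flg22, against 16, 11, and 10 in mock, and in Kn-0 8, 9, and 5 with flg22, against 6, 1, and 2 in mock. In No-0, where it passed the filter, it had 8, 12, and 13 counts with flg22, against 7, 12, and 9 in mock (0.74 ± 0.59, adjusted *P*-value 0.309). Over the 5 accessions together the counts were 80 with flg22 and 90 in mock, a ratio of flg22 over mock of 1.12 on TMM-scaled library sizes with a 95% counting interval of 0.821 to 1.54. On total counts the ratio turned to 0.91 (0.665 to 1.24), so its direction rested on the scaling.

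**Figure D4:**
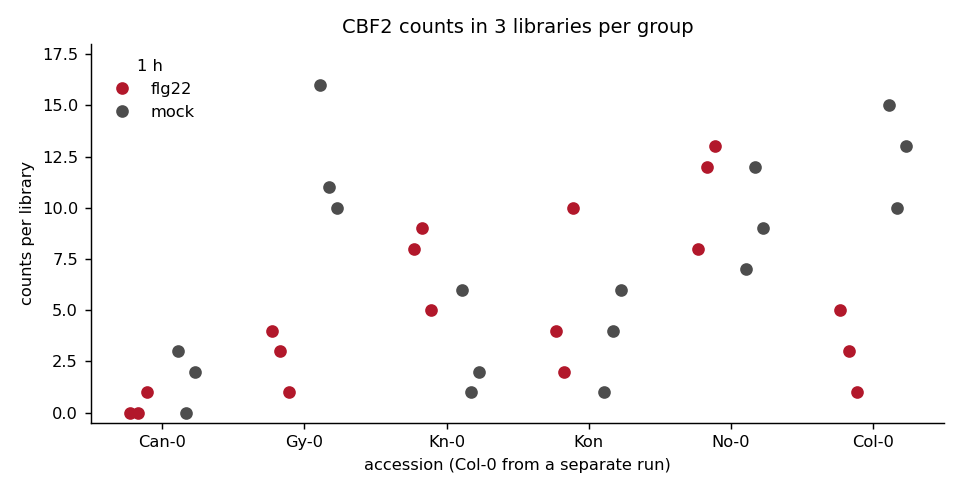
*CBF2* counts per library (vertical axis, linear) at 1 h in 5 accessions and in Col-0 from a separate run, with flg22 in red at the left and mock in grey at the right of each accession. The flg22 libraries are below the mock libraries in Gy-0 and Col-0, and the counts of the groups overlap in the other 4 accessions.

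*ERF017* (AT1G19210; chromosome 1, 6626794 to 6627688) was at 0 in all 6 Col-0 libraries at 1 h. Across the other accessions at 1 h it had 39 counts in 10 of 15 flg22 libraries, against 3 counts in 2 of 15 mock libraries. The ratio on TMM-scaled library sizes was 16.4 with a 95% counting interval of 5.23 to 83.2 (13.3 on total counts), which covers counting error only and pools accessions. In *C. rubella* at 1 h it had 3, 4, and 3 counts with flg22, against 0, 0, and 0 in mock. This was 3.92-fold higher when set against 3 counts over the group (3.24-fold on total counts), a convention and not a lower bound. The 95% counting interval of this ratio began at 2.63. In *C. hirsuta* it had 0, 0, and 1 counts with flg22, against 0, 2, and 2 in mock. In the fit without the filter none of these changes passed, and the lowest adjusted *P*-value was 0.0412 in *C. rubella* at 1 h. *ERF017* overlaps the gene *ARF19* (AT1G19220) on the same strand.

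The other genes of these pathways were read in Col-0 from lists chosen with earlier results of these data known. Their counts and medians beside all genes are therefore a description and no independent test. Of the group X ERFs, the relatives of *ERF109*, 5 of 7 were tested, and 4, 5, and 4 of them were higher with flg22 at 1, 9, and 24 h, with 0 lower, beside 11.9%, 11.1%, and 7.23% of all genes called in either direction. *ERF114* rose by 5.07 ± 0.66 at 1 h, *ABR1*, a repressor of abscisic acid responses, by 4.39 ± 0.31, *ERF112* by 3.77 ± 0.21, and *RAP2.6L* by 1.16 ± 0.14. The list median was 3.77 at 1 h, against -0.09 over all genes. *ERF109* itself, with 0.92 ± 0.87, was not called beside them. Of 2 known ERF109 targets in auxin production, *ASA1*, which encodes an anthranilate synthase subunit, rose at every time (2.08 ± 0.19, 1.89 ± 0.19, and 1.87 ± 0.19), and *YUC2* had -0.79 ± 0.32 at 1 h and was not called.

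Of 17 genes known to regulate the CBFs, 3, 2, and 1 were higher with flg22 at 1, 9, and 24 h, and 0, 1, and 0 were lower, beside 11.9%, 11.1%, and 7.23% of all genes called in either direction at these times. *MYB15*, which represses CBF genes, rose by 5.64 ± 0.52 at 1 h, 5.03 ± 0.51 at 9 h, and 4.02 ± 0.46 at 24 h. *ZAT12*, another repressor, rose by 2.53 ± 0.26 at 1 h and 1.53 ± 0.24 at 9 h. *CAMTA3*, a calmodulin-binding activator of *CBF2*, rose by 1.62 ± 0.24 at 1 h. *PIF4* fell by 1.20 at 9 h. The list median stayed near that of all genes, at -0.09 against -0.09 at 1 h, 0.22 against -0.02 at 9 h, and 0.06 against -0.03 at 24 h. In mock seedlings at 9 h against 1 h, 2 of the 17 were higher and 6 lower, beside 8.07% of all genes called. At 24 h against 1 h, 5 were higher and 2 lower, beside 9.22%. The clock genes *CCA1* and *LHY* changed in mock by -6.94 ± 0.32 and -6.96 ± 0.29 at 9 h against 1 h.

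Of 12 CBF regulon genes, which encode proteins that protect cells in the cold, 0, 0, and 0 were higher and 0, 3, and 3 were lower at 1, 9, and 24 h, beside 11.9%, 11.1%, and 7.23% of all genes called in either direction. *RD29A* changed by -1.35 ± 0.26 at 9 h and -1.60 ± 0.27 at 24 h, and *ERD10* by -1.01 ± 0.19 and -1.59 ± 0.19. *KIN2* was called at 9 h (-1.19 ± 0.29) and *COR47* at 24 h (-1.44 ± 0.17). The list median was 0.04, -0.94, and -1.46 at the 3 times, against -0.09, -0.02, and -0.03 over all genes. Root marker transcripts moved in the same libraries: their summed level was 1443 to 1835 CPM with flg22 at 9 h, against 2622 to 2883 CPM in mock, and 1064 to 1699 CPM at 24 h, against 2027 to 2532 CPM in mock. Of the 5 root markers, 4 were called lower at 9 h and 2 at 24 h, and 0 of the 3 shoot markers. At 1 h the summed root level was 1696 to 2485 CPM with flg22, against 1799 to 2154 CPM in mock. There 1 of the 5 root markers was called lower, while the median log2 fold change of the 5 was 0.23. The part of this shift in the CBF regulon and in the 9 and 24 h values of the members was not tested.

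Of 15 further DREB relatives, 11 were tested and 2 were called at each time, 1 in each direction, beside 11.9%, 11.1%, and 7.23% of all genes. *RAP2.9* rose at all 3 times (1.19 ± 0.20, 1.301 ± 0.20, and 1.11 ± 0.20), *ERF015* was lower at 1 h (-1.22 ± 0.24), and *TINY* was lower at 9 h (-1.73 ± 0.26) and 24 h (-1.64 ± 0.26). Of 10 genes of the DREB2A pathway, 1 was called, the heat shock factor gene *HSFA1D*, at 1 h (1.08 ± 0.23), a share no higher than the 11.9% of all genes called then.

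**Figure D5:**
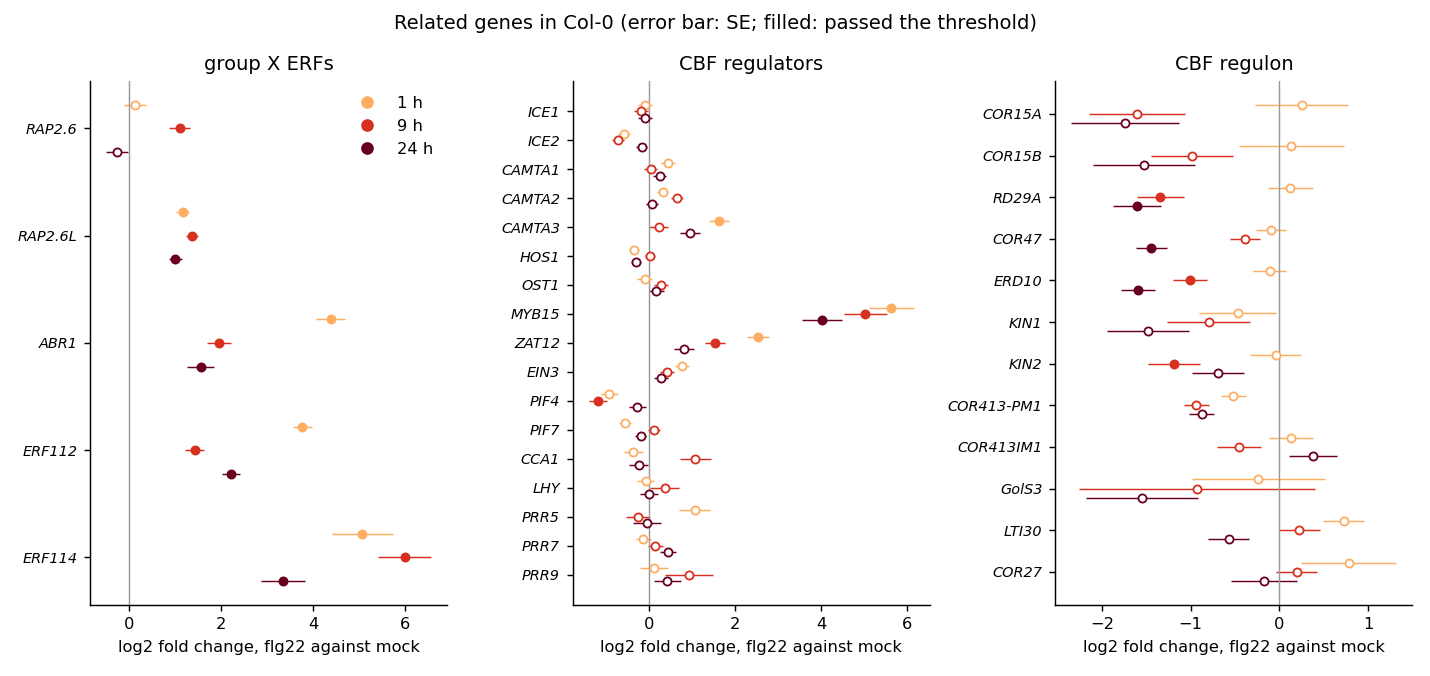
log2 fold change of flg22 against mock in Col-0 (horizontal axes) for the tested genes of 3 lists, at 1, 9, and 24 h from top to bottom in each gene, with the SE as error bar and filled symbols for genes that passed the threshold. The group X ERFs lie to the right of 0 at every time except *RAP2.6* at 24 h, *MYB15* stays above 4, and most CBF regulon genes lie left of 0 at 24 h.

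For each tested member, the 3 genes most alike in log2 CPM over the 18 Col-0 libraries were taken by Pearson's *r*, as a description of libraries that share treatment and time. *ERF019* was most like *CCR2* (*r* = 0.947), *DLAH* (0.944), and *TCP20* (0.933), and *DEAR1* was most like AT2G36220 (0.974), *WRKY26* (0.967), and *FQR1* (0.962). *DREB2A* was most like AT5G64230 (0.902), *UGT73B3* (0.895), and *GSTU7* (0.888), and *DREB26* was most like *IPT3* (0.915), *RLP51* (0.905), and AT1G23180 (0.887). *ERF109* was most like *ARI5* (0.847), *ILL6* (0.845), and AT3G11773 (0.830), and *ERF013* was most like AT1G14480 (0.829), *AHP4* (0.807), and AT1G32630 (0.792). Among the members themselves, *r* was highest for *DEAR1* and *ERF109* (0.68) and for *DREB26* and *ERF013* (0.54).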

How the data were processed

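RNA-seq counts of 102 libraries (strand-specific, polyA-selected) were used. The files the authors deposited hold unnormalized counts, made by TopHat2 alignment (TAIR10 for *A. thaliana*) and HTSeq 0.6.0 at default settings, under which reads with several alignments are not counted. For the 5 accessions, which of the genomes described by the study gave the counts was not given in the sources used here. HTSeq's summary lines were left out.

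Library sizes were scaled by TMM factors, and CPM used the same factors. Genes whose mean count per library was 10 or more entered edgeR (4.0.16, under R 4.3.3), whose quasi-likelihood test was run per species (18 libraries) or accession (6 libraries), with the replicate number as a block, as in the study's methods. *P*-values were adjusted by Benjamini-Hochberg over all genes tested, with thresholds of 0.01 and an absolute log2 fold change of 1. Each SE is the absolute log2 fold change over the root of the F statistic. Differences among the 5 accessions and the 4 species (1709 orthologs at hand, a part of the study's list) were tested in joint fits without the block. The replicate numbers mark 3 independent experiments, with both treatments side by side in each, and flg22 and mock libraries of 1 number deviated together with *r* above 0.1 in 45 of 51 pairs (median 0.36). The residual degrees of freedom were 10 per species and 2 per accession, so the accession tests lean on spread shared across genes. The weight of that shared spread, as median prior degrees of freedom, was 52.2 in No-0 and 4.94 to 9.44 in the other accessions. The small *P*-values of No-0 therefore lean on it most and are not comparable in size with those of the others.

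All 10 members are named, and from each list at most 4 called genes per direction. The members and lists were chosen with earlier results of these data known. Alternatives were no block, RLE factors, total counts (chosen after seeing the data), DESeq2 1.42.0, limma-voom (limma 3.58.1), no filter, and leaving out each replicate. The test was checked on simulated counts, with changes set only in genes well above the filter and 1 spread for all genes. That check does not cover members near the filter. Counting intervals cover counting error only, and a fold against a group at 0 was set against 3 counts over the group. Gene positions and promoters are from RefSeq TAIR10.1. The promoter window of 1 member is not reported here.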

Additional observations from a re-analysis of the deposited data

Results flagged for a closer look

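In Col-0 the flg22 effect changed with time, by the test of the difference itself, in 2 members. *DREB2A* differed by -1.79 (log2, 24 h against 1 h) and *ERF019* by -5.21, and both calls were lost without the replicate block.

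In 3 members, all 3 library pairs of 1 group moved one way and all 3 of another moved the other way, and these differences were not tested by that comparison of signs. The differences between median log2 ratios of pairs, on TMM-scaled library sizes, were as follows. *DREB2A* was higher with flg22 at 1 h and 9 h and lower at 24 h in Col-0, a difference of 2.14 for 1 h and 1.58 for 9 h. *CBF2* was higher at 24 h and lower at 1 h and 9 h in Col-0, a difference of 2.51 from 1 h and 1.24 from 9 h, from at most 16 counts per library. At 1 h *CBF2* was higher in Kn-0 and No-0 and lower in Gy-0, a difference of 2.40 for Kn-0 and 2.06 for No-0, where replicate 2 had 12 counts in both libraries. *ERF013* was higher at 24 h and lower at 9 h in Col-0, a difference of 2.44.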

How the results depend on the processing

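The 24 counts of called members were within 1.5 times of their main value in 191 of 212 alternatives and moved in 21, and of 912 values of single genes 859 kept their direction and side of the threshold, 20 lost the call, 8 gained it, and 25 reversed, none of them a called result.

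Without the replicate block, the called members numbered 0 for mock 9 h against 1 h, 0 for the flg22 effect at 24 h against 1 h, and 1 for *E. salsugineum* at 1 h. For the mock level among accessions the nested replicate block could not be fitted. By DESeq2 the number was 2 in Col-0 at 9 h, 1 in *C. rubella* at 9 h, 1 in *E. salsugineum* at 24 h, and 1 for the mock level among accessions. It was 2 in Col-0 at 9 h without the filter and 2 in Col-0 at 24 h by limma-voom. Leaving out 1 replicate gave 0 to 1 in Col-0 at 9 h, 1 to 2 at 24 h, 0 to 2 for the flg22 effect at 24 h against 1 h, 1 to 2 in *C. rubella* at 1 h and 0 to 1 at 24 h, 0 to 1 in *C. hirsuta* at 1 h, 1 to 2 in *E. salsugineum* at 1 h and 0 to 1 at 9 h, and 0 to 1 for the mock level among accessions.

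Reversed log2 values, all of members not called, were these. Without the replicate block they were -0.068 for *DREB26* in Col-0 at 24 h and -0.040 for *ERF109* in Kn-0. On total counts, an alternative chosen after seeing the data, it was -0.12 for *ERF109* in Kn-0. By limma-voom they were -0.14 for *ERF013* in Col-0 at 1 h, -0.38 for *ERF109* in mock at 9 h against 1 h, 0.59 for *ERF109* in the effect at 24 h against 1 h, and -0.063 for *ERF019* in *C. hirsuta* at 9 h. Leaving out 1 replicate in Col-0 gave -0.077 to 1.26 for *ERF109* and -0.53 to 1.41 for *ERF013* at 1 h, and -0.28 to 0.48 for *DREB26* at 24 h. In mock at 9 h against 1 h it gave -0.11 to 0.12 for *ERF019* and -1.08 to 0.93 for *ERF109*, and at 24 h against 1 h -0.91 to 0.010 for *ERF013*. In the effect at 9 h against 1 h it gave -0.84 to 1.94 for *ERF109*, -0.33 to 0.23 for *DREB2A*, and -0.42 to 0.11 for *DEAR1*, and in that at 24 h against 1 h -0.17 to 0.020 for *DEAR1* and -0.52 to 0.37 for *ERF109*. Elsewhere it gave -0.064 to 0.16 and -0.28 to 0.074 for *DREB26* in *C. rubella* at 9 and 24 h, -1.07 to 1.68 and -2.36 to 1.49 for *ERF019* in *C. hirsuta* at 9 and 24 h, -0.19 to 0.037 for *DREB26* in *E. salsugineum* at 24 h, and -0.12 to 0.56 for *ERF109* in Kn-0. On total counts, the share of all called genes that were higher with flg22 was 47.0% (58.9% with TMM) in Col-0 at 9 h. For 1 h it was 63.9% (86.2%) in *E. salsugineum*, 46.9% (69.2%) in *C. rubella*, 48.2% (70.8%) in Gy-0, 54.6% (82.1%) in Kn-0, 32.9% (63.4%) in Kon, and 32.8% (65.6%) in No-0. The causes were not tested. Low counts limit what can be read from *CBF1*, *CBF2*, *CBF3*, and *ERF017*, and the reason for them was not tested.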
